A study of Mus musculus with 6 samples.

Results

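Trp53, the mouse gene of the tumor suppressor p53, and 9 of its canonical targets (Mdm2, Cdkn1a, Trp53inp1, Ccng1, Bbc3, Zmat3, Bax, Plk2 and Sesn1) were followed in 4T1 cells, a mouse mammary carcinoma line that is reported to lack functional p53. The 10 genes were chosen by name from the 48587 rows of the deposited count table. All 10 were among the 13166 genes that passed the filter on low counts, which kept a gene at 1 cpm (reads scaled to the size of the library) or more in at least 3 libraries. Total RNA, depleted of ribosomal RNA, was sequenced from 3 libraries of METTL7A1 cells and 3 of mock cells, described as biological triplicates. METTL7A1 cells stably carried a full-length cDNA of Mettl7a1, a methyltransferase-like gene, in the vector pBICEP-CMV-2, in which the CMV promoter drives expression, while mock cells carried the empty vector. Cells of both groups came from the same 4T1 line, and the transfectants were kept under G418 at 350 µg/ml. Whether each transfectant was a clone or a pool was not given in the sources used here, so any difference between the groups may hold differences between the transfectants as well as the effect of the cDNA. The comparison asks how the transcripts of p53 and of its targets stood in 4T1 cells with and without the exogenous Mettl7a1.

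p53 is a transcription factor that binds a pair of adjoining decameric half-sites near its targets and raises their transcription after DNA damage and other stress. Its targets include its own antagonist Mdm2, which closes a negative feedback loop, the cell cycle inhibitor Cdkn1a (p21), and genes of apoptosis such as Bax and Bbc3 (Puma). Many of these genes also answer to other transcription factors, so that a transcript from such a gene is not by itself a readout of p53. In mammary tumors p53 is among the genes most often lost.

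p53 is known to work through sites near these genes, and the closest matches near their start sites in the reference genome are shown for that reason. The sequence of 4T1 cells was not examined. RefSeq promoter windows (build GRCm38.p6) ran from 250 bases before a start site to 50 bases after it, and 8 of the 10 genes had 12 such windows between them, with none listed for Trp53inp1 and Zmat3. In each window the 20-base stretch with the fewest mismatches to the p53 consensus full site without a spacer was found, a search that reads both strands because the consensus is its own reverse complement. The capitals mark the 4 core letters of each half-site, and each sequence is on the strand of its gene.
Cdkn1a, chr17:29090928-29090947: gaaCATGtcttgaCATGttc
Ccng1, chr11:40755462-40755481: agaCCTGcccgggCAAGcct
Trp53, chr11:69580284-69580303: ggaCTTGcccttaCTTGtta
Bbc3, chr7:16309486-16309505: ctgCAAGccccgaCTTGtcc
Sesn1, chr10:41887266-41887285: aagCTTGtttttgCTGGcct
Mdm2 half-site, chr10:117710935-117710944: gaaCTTGcct

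The Cdkn1a stretch had 1 mismatch and began 51 bases before the first annotated start site of the gene and 2841 bases before the second. The Ccng1 stretch also had 1 mismatch and began at position -195 from its start site. So close a match was found in 29 of all 32851 promoter windows (0.0883%). The Trp53, Bbc3 and Sesn1 stretches had 3 mismatches, as had 1 in Bax, and 6.29% of all windows reached 3 or fewer. The closest full stretches of Mdm2 and Plk2 had 5 mismatches, a level that 76.6% of all windows reached, and for Mdm2 the single half-site is shown in its place. An exact half-site was present in 6 of the 12 windows, which belong to 8 genes, compared with 8.36% of all windows and 6.69% of the windows of tested genes. The genes were picked as p53 and its known targets, so this share is no result of these data. A match describes the letters of the window and does not show that a factor binds there, and p53 sites within introns, such as the known ones of Mdm2, lie outside these windows.

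The libraries held 20409195 to 25112433 counts in mock cells and 18386780 to 28459338 in METTL7A1 cells. Log2 cpm correlated across genes with r of 0.991 to 0.997 within groups and 0.968 to 0.973 between them. Mettl7a1 was counted 30, 30 and 29 times in the mock libraries and 6355, 11358 and 10398 times in the METTL7A1 libraries, as the labels state. Mammary epithelial markers (Epcam, Krt7, Krt8, Krt18, Krt19 and Cdh1) summed to 1760 to 2140 cpm in mock and 1940 to 2290 cpm in METTL7A1 libraries. Markers of leukocytes, endothelium and fibroblasts summed to 23.9 to 25.9 cpm and to 36 to 40.6 cpm. Of these 9 markers 2 were tested and both rose, Cd68 with a log2 fold change of 1.23 and Pdgfra with 0.47, while the leukocyte marker Ptprc stood at 0.209 and 0.232 cpm on average and the T cell marker Cd3e at 0 in every library. Their part in the values of the p53 targets was not tested.

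Trp53 transcripts were present in every library and did not pass the test. Trp53 (chr11:69580359-69591873, plus strand, GRCm38) was measured at 48.2, 42.5 and 47.5 cpm in mock cells and at 47.3, 41.8 and 40.6 cpm in METTL7A1 cells. The 2 groups overlapped. The log2 fold change, given here always as METTL7A1 against mock, was -0.09 (SE 0.08, 95% interval -0.28 to 0.09, adjusted p = 0.394 by edgeR's quasi-likelihood test with Benjamini-Hochberg adjustment over all tested genes, as for every adjusted p here). Per kilobase of exon, Trp53 stood at 24.7 ± 1.65 RPKM in mock cells (SD, n = 3), above 80.8% of the tested genes, of which the median was 7.86 RPKM. A count of transcripts does not show whether they encode a working protein, and in bulk RNA fewer cells of a type and less RNA per cell cannot be told apart. Of the 31-base stretches in annotated Trp53 transcripts 8.79% recur in the pseudogene Trp53-ps, which was listed with 0 counts in every library.

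The 2 relatives of p53 that bind the same sites were nearly absent. Trp63 had 0 to 2 counts in each library and Trp73 had 0 or 1, and neither passed the filter. Cdkn2a, whose Arf product holds Mdm2 in check, had 0 counts in all 6 libraries, which allows up to 0.102 to 0.164 cpm by library for counting error alone. Nor was Mdm4, the partner of Mdm2 in restraining p53, called different (159 ± 25.1 cpm in mock and 183 ± 22.3 cpm in METTL7A1 cells, SD, n = 3, log2 fold change 0.20, SE 0.12, adjusted p = 0.188). Without mock replicate 3 the Mdm4 value was 0.34 and passed the test (adjusted p = 0.0112).

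Mdm2, the ubiquitin ligase that marks p53 for degradation and is itself a p53 target, rose. Mdm2 (chr10:117688888-117710758, minus strand) was measured at 47.9, 52.3 and 53.7 cpm in mock cells and at 71.1, 71.7 and 69.9 cpm in METTL7A1 cells. Every METTL7A1 library lay above every mock library, and the METTL7A1 libraries differed among themselves by less than the mock libraries did. The log2 fold change was 0.47 (SE 0.07, 95% interval 0.31 to 0.62, adjusted p = 0.00032), a 1.38-fold difference.

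Of the targets that act on the cell cycle, Cdkn1a rose, and Ccng1 and Plk2 did not pass the test. Cdkn1a (chr17:29090979-29100722, plus strand), the inhibitor of cyclin-dependent kinases through which p53 halts the cycle, was measured at 5.08, 6.85 and 6.04 cpm in mock cells and at 7.92, 9.11 and 10.2 cpm in METTL7A1 cells. The groups did not overlap, but the count was modest, with 93 to 166 reads per mock library and 147 to 269 per METTL7A1 library. The log2 fold change was 0.60 (SE 0.15, 95% interval 0.27 to 0.92, adjusted p = 0.008), a 1.51-fold difference.

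Ccng1 (chr11:40748552-40755311, minus strand), which encodes cyclin G1, was the other gene with a near match to the full p53 site. It was measured at 41.7, 51.2 and 42.2 cpm in mock cells and at 37.5, 41.7 and 43.2 cpm in METTL7A1 cells, with overlap between the groups. Its log2 fold change was -0.14 (SE 0.09, 95% interval -0.35 to 0.07, adjusted p = 0.255). Plk2 (chr13:110395044-110400844, plus strand), a polo-like kinase induced by stress, was measured at 143, 145 and 135 cpm in mock cells and at 129, 123 and 123 cpm in METTL7A1 cells. All METTL7A1 libraries lay below all mock libraries, yet the log2 fold change of -0.17 (SE 0.07, 95% interval -0.32 to -0.03) missed the threshold with an adjusted p of 0.0586. It passed without mock replicate 3 (adjusted p = 0.0338) and without METTL7A1 replicate 1 (adjusted p = 0.0444). Cdkn1a and Ccng1, the genes with the near matches, thus differed in outcome, 0.60 and called against -0.14 and not called, a difference that was itself not tested.

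The apoptotic targets did not move as a group. Trp53inp1 (chr4:11156431-11174379, plus strand), a stress-induced nuclear protein that promotes cell death and autophagy, was measured at 2.73, 3.22 and 3.66 cpm in mock cells and at 6.20, 5.65 and 5.72 cpm in METTL7A1 cells. It rose with no overlap between the groups, and its log2 fold change of 0.86 (SE 0.16, 95% interval 0.51 to 1.21, adjusted p = 0.00144) was the largest of the 10 genes, a 1.81-fold difference. It was also among the scarcest, with 50 to 91 reads in mock and 115 to 167 reads in METTL7A1 libraries. Bax (chr7:45461697-45466898, minus strand), the pore-forming executor of mitochondrial apoptosis, went the other way, from 21.3, 21.2 and 18.6 cpm to 16.1, 16.7 and 17.8 cpm. The groups did not overlap and the log2 fold change was -0.27 (SE 0.09, 95% interval -0.47 to -0.07, adjusted p = 0.0353). That call was the least secure of the 10 genes, since it was lost in 8 of 15 alternative fits, among them the fits without mock replicate 1 (adjusted p = 0.128), mock replicate 2 (0.111), METTL7A1 replicate 1 (0.0748) and METTL7A1 replicate 2 (0.11). Of the 31-base stretches of Bax transcripts, 9.89% recur in the annotated gene Gm45808.

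Bbc3 (chr7:16309616-16318205, plus strand), a BH3-only activator of apoptosis, was measured at 1.80, 1.69 and 1.65 cpm in mock cells and at 1.78, 2.34 and 2.92 cpm in METTL7A1 cells. The lowest METTL7A1 library lay within the mock range while the other two lay above it. The log2 fold change was 0.47 (SE 0.23, 95% interval -0.03 to 0.97, adjusted p = 0.124), so at 33 to 72 reads per library the same fold as that of Mdm2 could not be told from no change.

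Sesn1 (chr10:41810574-41908424, plus strand), a sestrin that restrains mTORC1 signaling and oxidative stress, fell. It was measured at 19.7, 19.9 and 20.8 cpm in mock cells and at 13.1, 15.1 and 14.4 cpm in METTL7A1 cells. The groups were well apart, and the log2 fold change was -0.50 (SE 0.09, 95% interval -0.70 to -0.30, adjusted p = 0.00119), a level of 0.707 times that in mock cells. Zmat3 (chr3:32334792-32365678, minus strand), a zinc finger protein that binds RNA, was measured at 22.7, 25.9 and 27.5 cpm in mock cells and at 22.2, 20.8 and 25.3 cpm in METTL7A1 cells. Its groups overlapped, and the log2 fold change was -0.16 (SE 0.10, 95% interval -0.38 to 0.06, adjusted p = 0.236).

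**Figure D1:**
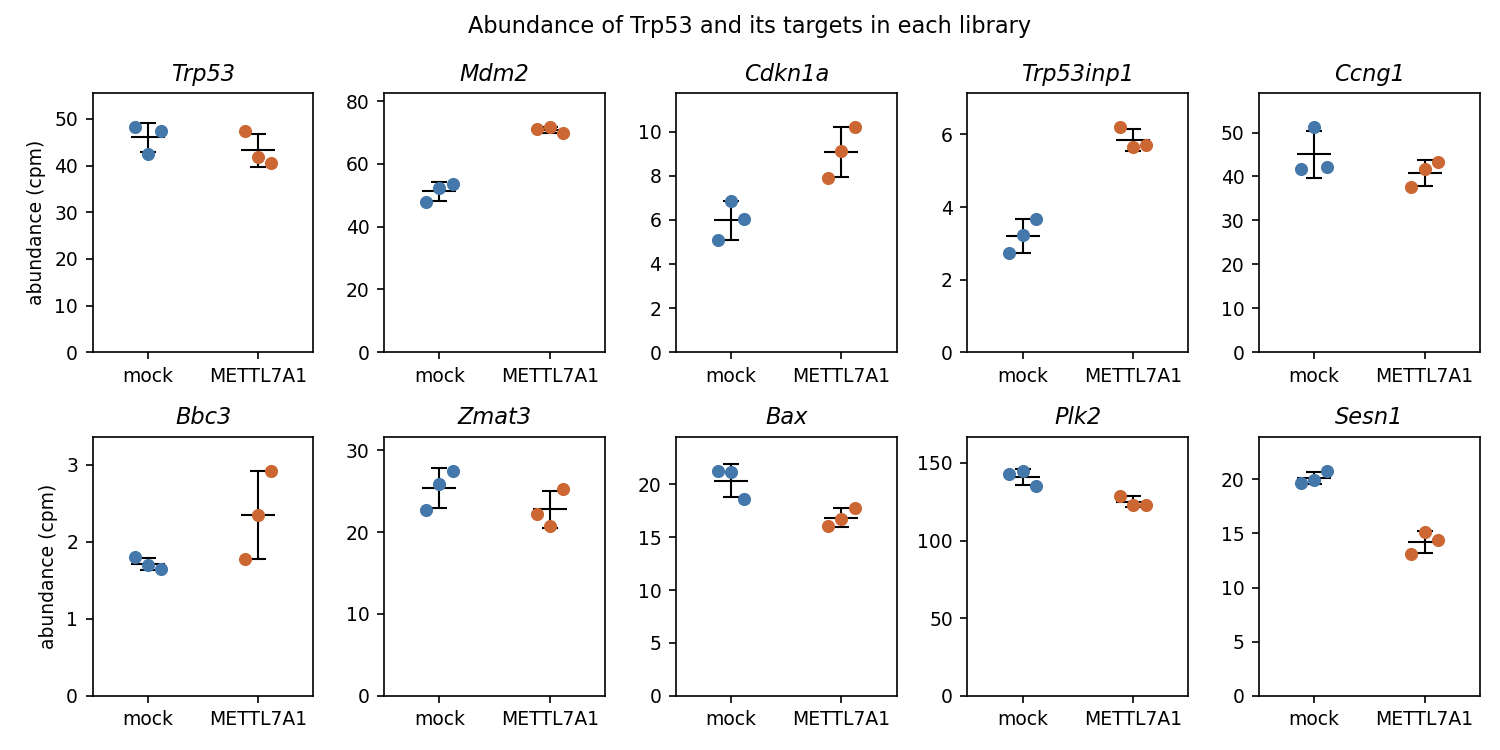
Abundance in cpm (y axes, from 0, one scale per gene) of the 10 genes in each mock and METTL7A1 library (points), with the mean and SD of each group as bars. Mdm2, Cdkn1a and Trp53inp1 have all METTL7A1 points above the mock points, Bax, Plk2 and Sesn1 have them below, and Trp53, Ccng1, Bbc3 and Zmat3 overlap.

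Counted together, 5 of the 10 genes passed the test at an adjusted p under 0.05, 3 of them higher (Mdm2, Cdkn1a and Trp53inp1) and 2 lower (Bax and Sesn1). Of all tested genes 42.1% passed, with 21.1% higher and 21% lower, so that the count for the p53 genes was near the background. Groups did not overlap in 6 of the 10 genes, 3 in each direction, and in 51.6% of all tested genes (25.9% higher and 25.6% lower). None of the 10 passed the study's own thresholds, an adjusted p under 0.01 and a log2 fold change over 1.5 in size, which 2.48% of tested genes passed. The median log2 fold change of the 10 genes was -0.12, within a range of -0.5 to 0.86, and that of all tested genes was -0.03. The direction among the targets was thus mixed.

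Levels per length ranged widely among Trp53 and its canonical targets. In mock cells Plk2 stood highest at 50.2 ± 1.92 RPKM (SD, n = 3, here and in the rest of the paragraph), above 91.8% of tested genes. Trp53 itself came next and overlapped with Bax (23.5 ± 1.72 RPKM), and Mdm2 (16.4 ± 0.954 RPKM), Ccng1 (12.8 ± 1.53 RPKM) and Sesn1 (6.05 ± 0.181 RPKM) followed without overlap between neighbors in the order. Zmat3 (3.25 ± 0.314 RPKM) overlapped with Cdkn1a (2.69 ± 0.398 RPKM). Bbc3 (0.946 ± 0.0438 RPKM) and Trp53inp1 (0.593 ± 0.086 RPKM) were lowest, above 10% and 5.55% of tested genes. Levels of targets thus differed by much more than any of them differed between the groups. Of the 867 exon bases of Bax, 192 are shared with RP23-218K15.5 on the same strand, a gene with 0 counts in every library. If reads in shared bases were left uncounted, the level of Bax per length is too low. The place of Bax in the order is therefore uncertain in both groups.

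In METTL7A1 cells the order, with Bax taken as counted, changed at 2 places. Mdm2 (22.6 ± 0.296 RPKM, SD, n = 3) passed Bax (19.4 ± 1.02 RPKM) and overlapped with Trp53 (23.1 ± 1.91 RPKM), so that the level of Mdm2 relative to Trp53 was higher than in mock cells, where the 2 genes did not overlap. Cdkn1a (4.08 ± 0.508 RPKM) passed Zmat3 (2.92 ± 0.301 RPKM) and overlapped with Sesn1 (4.27 ± 0.293 RPKM). The position of Mdm2 among all tested genes moved from 70.7% to 79.5% of genes below it, that of Cdkn1a from 25.4% to 32.8%, and that of Sesn1 from 43% to 33.8%. At the lower end Bbc3 (1.29 ± 0.315 RPKM) and Trp53inp1 (1.08 ± 0.0549 RPKM) overlapped.

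**Figure D2:**
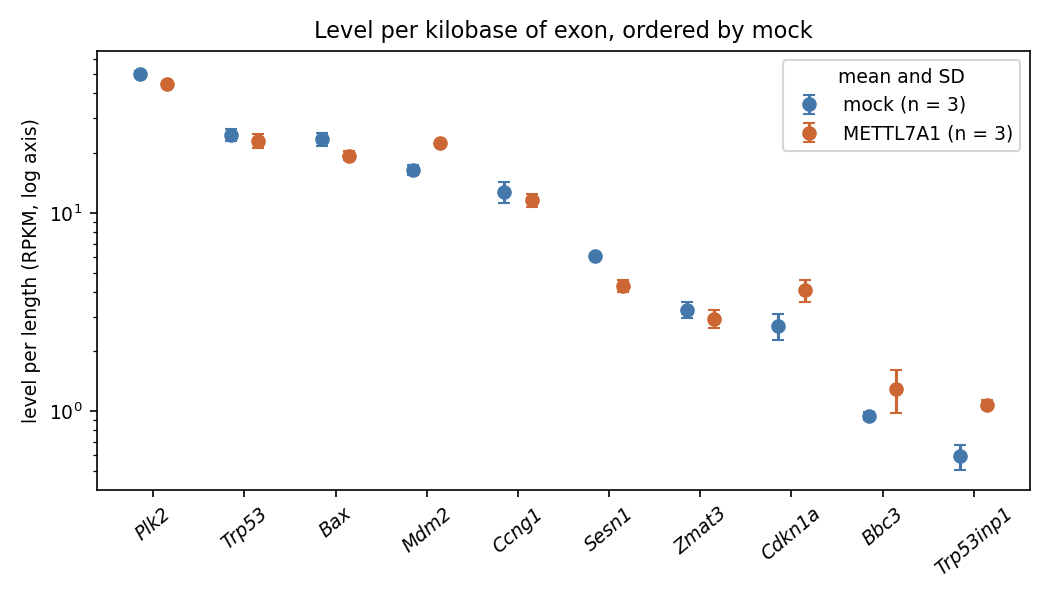
Level per length (y axis, RPKM, log axis) of the 10 genes in mock and METTL7A1 cells, ordered by the mock level, as means with SD over 3 libraries per group. Plk2 is highest at 50.2 RPKM in mock cells and Trp53inp1 lowest at 0.593 RPKM, and Mdm2 reaches the level of Trp53 in METTL7A1 cells.

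To see whether the genes moved with their chromosomal surroundings, each was set beside its 40 nearest tested neighbors with an average log2 cpm over 2. For Mdm2, 29 of the 40 neighbors were called higher and 1 lower, over a span of 11.9 Mb, and their median log2 fold change was 0.35. The value of Mdm2, 0.47, lay between the quartiles of its neighbors (0.26 and 0.5). For Sesn1, also on chromosome 10, 31 neighbors were called lower and 2 higher over 11.3 Mb, with a median of -0.52 and quartiles of -0.73 and -0.27 around its own -0.50. The rise of Mdm2 and the fall of Sesn1 thus lay within the spread of the genes around them. What moved these neighborhoods was not tested.

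Cdkn1a and Trp53inp1 stood apart from their surroundings. The 40 neighbors spanned 3.66 Mb for Cdkn1a, 18.2 Mb for Trp53inp1 and 0.922 Mb for Trp53, so the surroundings differed widely in size. The neighbors of Cdkn1a had a median of 0.12 and quartiles of 0.01 and 0.29, and 38 of the 40 had a lower log2 fold change than Cdkn1a at 0.60. The neighbors of Trp53inp1 had a median of -0.24 and quartiles of -0.46 and -0.08, with 16 called lower and 3 higher, while Trp53inp1 rose by 0.86 and 39 of the 40 lay below it. Bbc3 was the remaining gene outside the quartiles of its neighbors (-0.33 and -0.04), with 37 of 40 below its value of 0.47. Trp53, Ccng1, Zmat3, Bax and Plk2 lay between the quartiles of theirs. The share of all tested genes that lie between the quartiles of their neighbors was not computed. Cdkn1a, Trp53inp1 and Bbc3 also had the largest SE of the 10 genes (0.15, 0.16 and 0.23).

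With the neighbor median subtracted gene by gene in the fit, 2 of the 10 genes were called, and 31.5% of all tested genes. Both were higher: Cdkn1a at a log2 difference of 0.47 (adjusted p = 0.032) and Trp53inp1 at 1.09 (adjusted p = 0.000421). Mdm2 came to 0.12 (adjusted p = 0.22), Sesn1 to 0.02 (adjusted p = 0.908), Bax to -0.16 (adjusted p = 0.216) and Bbc3 to 0.63 (adjusted p = 0.0554). The subtracted median was treated as known, so its own error is not in these p-values.

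**Figure D3:**
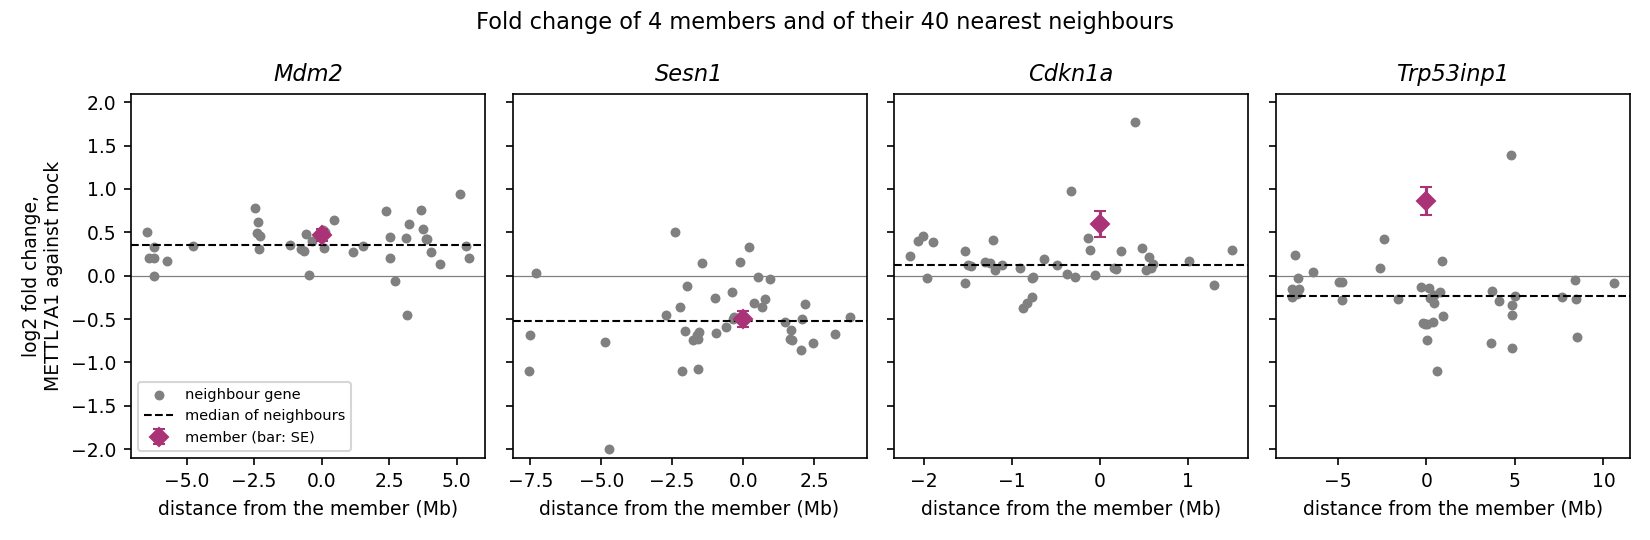
Log2 fold change (y axis, METTL7A1 against mock) of Mdm2, Sesn1, Cdkn1a and Trp53inp1 (diamonds, bars are SE) and of the 40 nearest tested genes of each (grey points) by distance in Mb (x axis), with the neighbor median dashed. Mdm2 and Sesn1 lie near the medians of 0.35 and -0.52, and Cdkn1a and Trp53inp1 lie above medians of 0.12 and -0.24.

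Several of the 10 genes have paralogs with a related product, which were set beside them. Of 16 listed paralogs 10 were tested and 7 were called, 6 higher and 1 lower, with a median log2 fold change of 0.44, while 42.1% of all tested genes were called, 21.1% higher and 21% lower. Ccng2, a cyclin G known as a target of FoxO factors, rose from 11.6 ± 0.995 to 34.0 ± 2.72 cpm (SD, n = 3, log2 fold change 1.56, SE 0.10, adjusted p = 8.06e-07), while Ccng1 did not pass the test. The log2 ratio of Ccng2 to Ccng1 per length moved from -1.78 ± 0.17 to -0.09 ± 0.05, without overlap. Plk3 rose from 27.6 ± 2.36 to 49.6 ± 3.06 cpm (log2 fold change 0.85, SE 0.08, adjusted p = 2.28e-05), and its log2 ratio to Plk2 moved from -2.11 ± 0.09 to -1.1 ± 0.08. In both pairs the ratio was higher in every METTL7A1 library than in any mock library.

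Among the sestrins, Sesn1 fell while Sesn2 and Sesn3 rose. Sesn2, a sestrin induced by amino acid and endoplasmic reticulum stress, was measured at 5.41, 5.49 and 4.03 cpm in mock cells and at 11.2, 15.2 and 11.5 cpm in METTL7A1 cells (log2 fold change 1.35, SE 0.17, adjusted p = 9.28e-05). Sesn3, a sestrin known as a target of FoxO factors, rose from 64.4 ± 5.69 to 90.3 ± 5.30 cpm (SD, n = 3, log2 fold change 0.49, SE 0.08, adjusted p = 0.000651). The log2 ratio of Sesn2 to Sesn1 per length moved from -2.09 ± 0.29 to -0.25 ± 0.18, and that of Sesn3 to Sesn1 from 0.16 ± 0.13 to 1.16 ± 0.09. With the neighbor median subtracted Sesn1 came to 0.02 (adjusted p = 0.908), Sesn2 to 1.5 (adjusted p = 5.79e-05) and Sesn3 to 0.6 (adjusted p = 0.000226). The ratios hold no such subtraction, so they include the fall shared by the neighbors of Sesn1. Per length, Sesn3 and Sesn1 stood at 6.78 and 6.05 RPKM in mock cells and at 9.51 and 4.27 RPKM in METTL7A1 cells.

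Bak1, the fellow executor of Bax in the Bcl-2 family, rose from 32.4 ± 3.27 to 42.6 ± 3.97 cpm (SD, n = 3, log2 fold change 0.40, SE 0.10, adjusted p = 0.00655), and its log2 ratio to Bax moved from -0.79 ± 0.05 to -0.13 ± 0.06. With the neighbor median subtracted Bak1 came to 0.19 and was not called (adjusted p = 0.168). Bok, a further relative of Bax, fell by 0.41 on the log2 scale (SE 0.10, adjusted p = 0.00928). Trp53inp2, an autophagy protein, rose like its paralog Trp53inp1 (log2 fold change 0.72, SE 0.17, adjusted p = 0.00544), whereas Cdkn1b, the p27 inhibitor, gave 0.04 (SE 0.08, adjusted p = 0.709) and its log2 ratio to Cdkn1a moved from 2.87 ± 0.17 to 2.31 ± 0.22. Plk4 gave a log2 fold change of -0.07.

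Ratios of paralog to target were compared for 10 pairs, and in 7 of them the METTL7A1 libraries did not overlap the mock libraries. Among single tested genes 51.6% did not overlap, and the share among ratios of other gene pairs was not computed. Sesn1, Plk2 and Bax each entered several pairs, so the pairs were not independent. The exact two-sided permutation p was 0.1 in each of the 7 and 0.143 after Benjamini-Hochberg adjustment over the 10 pairs. With 3 libraries against 3, 0.1 is the smallest p that this test can give. In the other pairs, Trp53inp2 to Trp53inp1, Bok to Bax and Mdm4 to Mdm2, the ratio moved by -0.16, -0.15 and -0.26 with overlap between the groups. The ratio of Plk4 to Plk2, among the 7 without overlap, moved by only 0.1, less in size than any of these.

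**Figure D4:**
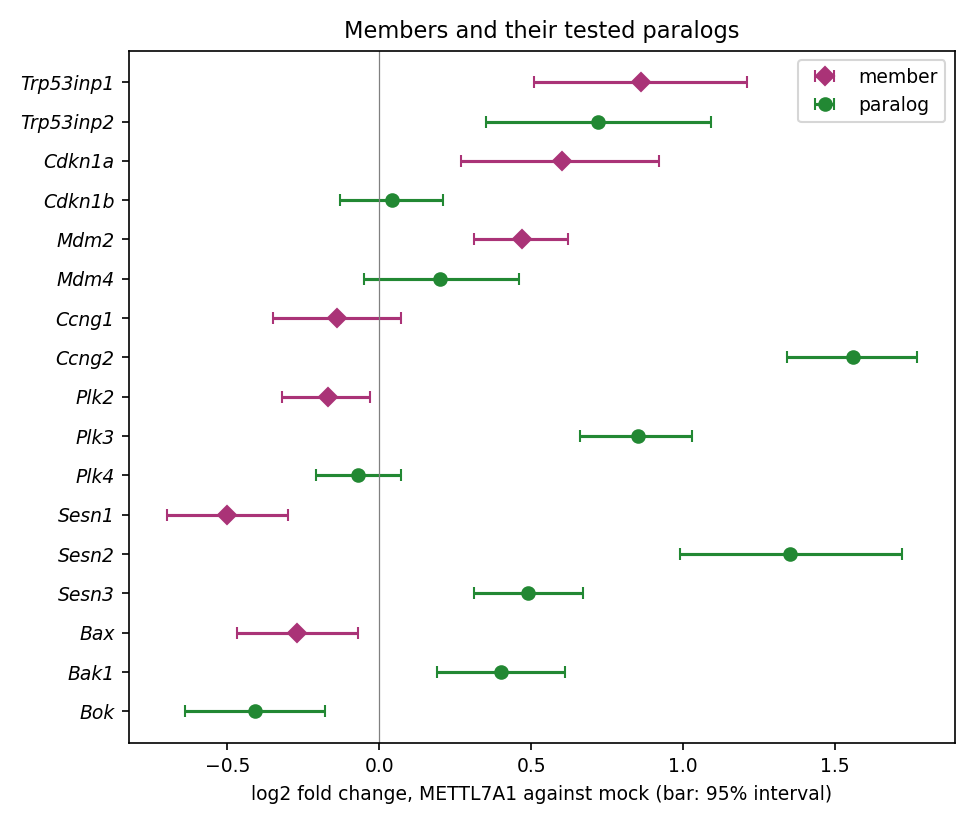
Log2 fold change, METTL7A1 against mock (x axis, bars are 95% intervals), of the p53 targets (diamonds) and of their tested paralogs (circles), grouped by family from top to bottom. Ccng2, Plk3, Sesn2, Sesn3 and Bak1 lie above 0 while Ccng1, Plk2, Sesn1 and Bax lie below it, and Trp53inp1 and Trp53inp2 both lie above. Bok lies below 0 like Bax, and the intervals of Ccng1, Plk4, Mdm4 and Cdkn1b cross 0. Sesn2 is also counted among the other p53 targets.

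A further 40 known p53 targets were counted, of which 34 were tested and 15 called, 9 higher and 6 lower (44.1%, against 42.1% of all tested genes), with a median log2 fold change of 0.08. With the neighbor median subtracted the count was again 15. The study's thresholds were passed by 3 of the 34, beside 2.48% of all tested genes. Ephx1, the microsomal epoxide hydrolase, rose from 0.232 ± 0.0872 to 3.06 ± 0.138 cpm (SD, n = 3, log2 fold change 3.66, SE 0.29), from only 3 to 8 reads per mock library. Its mock libraries all lay below 1 cpm, so Ephx1 passed the filter on low counts only through the METTL7A1 libraries. Its call is therefore no separate support for a rise, though it is counted among the 9 higher and the 3 past the study's thresholds. Ddit4 (Redd1), an inhibitor of mTORC1, rose from 8.32 ± 0.625 to 46.0 ± 8.73 cpm (log2 fold change 2.48, SE 0.14, adjusted p = 3.85e-07), and Psrc1, a microtubule-associated protein, fell from 7.40 ± 0.484 to 1.76 ± 0.266 cpm (log2 fold change -2.05, SE 0.17, adjusted p = 5.55e-06). Both directions were thus found among the targets that moved most.

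Next in size were Sesn2, given above, the death receptor Fas and the DNA damage sensor Ddb2. Fas rose from 6.17 ± 1.18 to 15.3 ± 2.17 cpm (SD, n = 3, log2 fold change 1.30, SE 0.16, adjusted p = 7.75e-05). Ddb2 rose from 28.7 ± 0.525 to 49.4 ± 6.32 cpm (log2 fold change 0.78, SE 0.09, adjusted p = 7.31e-05), with exons that overlap those of Acp2 on the opposite strand, so that reads of the 2 genes may not be separable if strand was not used in counting. Some classical p53 targets were close to silent in both groups: Pmaip1 (Noxa) had 0 to 3 reads per library, Eda2r 0 or 1, and the p53-induced noncoding RNA Trp53cor1 had 0 to 5. Gdf15, a secreted stress cytokine, had 0 reads in every mock library and 3, 5 and 3 reads in the METTL7A1 libraries.

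Regulators and relatives of p53 were counted in the same way. Of the 21 genes found among the deposited rows, 18 were tested and 9 called, 5 higher and 4 lower, with a median of 0.11, beside 42.1% called among all tested genes. With the neighbor median subtracted only Chek2 was called, beside 31.5% of all tested genes. The count of 9 fell to 4 without mock replicate 1, to 5 without mock replicate 2 and to 4 without METTL7A1 replicate 2. Sirt1, a deacetylase of p53, rose from 42.0 ± 2.21 to 64.4 ± 0.668 cpm (SD, n = 3, log2 fold change 0.62, SE 0.07, adjusted p = 4.48e-05), of which 0.13 was left over its neighbors. Chek2, a DNA damage kinase that phosphorylates p53, rose by 0.40 (SE 0.10, adjusted p = 0.00743) and stood at 0.47 over its neighbors (adjusted p = 0.00419). Ppp1r13l (iASPP), an inhibitor of p53, fell by 0.40 on the log2 scale (SE 0.10, adjusted p = 0.00738), and Usp10, which removes ubiquitin from p53, fell by 0.35 on the log2 scale (SE 0.07, adjusted p = 0.00247). Wrap53, whose gene lies head to head with Trp53, fell by 0.35 on the log2 scale (SE 0.10, adjusted p = 0.0178), and the coactivator Ep300 rose by 0.27 (SE 0.07, adjusted p = 0.0146). Single libraries decided 3 of these calls: Wrap53 was not called without mock replicate 1 or without METTL7A1 replicate 2 or 3, Ep300 without mock replicate 1 or 2, and Chek2 without METTL7A1 replicate 2. Both activating and restraining genes were thus among those that rose and among those that fell.

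Downstream of Cdkn1a, p21 holds back many cell cycle genes through the DREAM repressor complex, and 20 such genes were examined. All 20 were tested and 9 were called, 7 higher and 2 lower, and their median log2 fold change was 0.03. This share, 45%, was near the 42.1% of all tested genes. Rrm2 (-0.61, adjusted p = 0.000117) and Mcm5 (-0.50, adjusted p = 0.00067), genes of DNA synthesis, fell. Cdk1 (0.49, adjusted p = 0.00046), Bub1 (0.45, adjusted p = 0.000455), Cdc25c (0.43, adjusted p = 0.00272) and E2f1 (0.41, adjusted p = 0.00354) rose along with Cdkn1a. With the neighbor median subtracted 1 of the 20, Mcm5 at -0.28, was still called, beside 31.5% of all tested genes.

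The tested genes whose log2 cpm followed that of Trp53 most closely over the 6 libraries were Krba1 (Pearson r = 0.993), Snora5c (0.992) and Gm11722 (0.989). Among those closest to Cdkn1a were Ccni (0.996) and Rassf8 (0.995). The points are 6 libraries in 2 groups, and the named genes were picked as the highest among all tested genes. For Cdkn1a any gene with a similar step between the groups scores highly. The groups of Trp53 overlapped, so its values follow the spread among single libraries. All these values are descriptions.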

How the data were processed

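Total RNA of 3 mock and 3 METTL7A1 libraries of 4T1 cells was measured with a stranded, ribosomal RNA-depleted protocol. The authors trimmed reads with BBDuk, aligned them with STAR (version 2.5.3a) to GRCm38 (mm10) and counted them per gene with featureCounts, and the deposited table holds these raw counts with each gene's exons and exon length. The strand and multi-mapping settings were not given in the sources used here, so genes with similar or overlapping copies may share reads.

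The labels gave the group and the replicate number of each library. The members and the gene lists were chosen with earlier results of these data known. From the deposited counts, genes with at least 1 cpm in at least 3 libraries (13166, holding at least 99.76% of each library's counts) were fitted with edgeR's quasi-likelihood test (edgeR 4.0.16, R 4.3.3) on TMM factors, and p-values were adjusted by Benjamini-Hochberg over all tested genes. A gene was called at an adjusted p under 0.05. RPKM here is TMM-scaled cpm per kilobase of the table's exon length. SE was taken from the F statistic and the log2 fold change, and intervals are at 95%. Limits from 0 counts use 3 counts and cover counting error only. The p-values measure the spread between libraries, which may be partly technical.

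Of each list at most 6 called genes with the largest log2 fold change in size were named, plus paralogs and p53 relatives set beside a member. The 10 pairs of paralog and target, and the leaving out of single libraries in those pairs, were chosen after seeing the data. Alternatives were RLE and upper-quartile factors, no filter, a filter of 10 or more counts throughout, leaving out the 20 genes with the most counts, a replicate block, each library left out, DESeq2 (1.42.0), limma voom (3.58.1) and the neighbor offset. The scripts were tested on simulated data. Trp53rk was left out of its list because its name matched no single row. No library was left out, and values of some listed genes are not reported here.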

Additional observations from a re-analysis of the deposited data

How the results depend on the processing

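Counts and fold changes were refitted under 15 alternatives, counting the 6 that leave out 1 library, and the paralog ratios under those 6 alone. Cdkn1a (log2 fold change 0.47 to 0.7) and Trp53inp1 (0.78 to 1.09) kept their calls in all 15, and Ccng1, Bbc3 and Zmat3 stayed uncalled in all 15. With the neighbor offset Trp53 came to 0.03 (adjusted p = 0.802) and Sesn1 to 0.02 (adjusted p = 0.908), neither told from no change. Sesn1, Mdm2 (0.12) and Bax (-0.16) lost their calls in that fit. The called count was then 2 of the 10 genes, 1 of the p53 regulators and family and 1 of the p21-DREAM genes. Leaving out single libraries gave 4 to 6 called of the 10 genes, 11 to 17 of the other p53 targets, 7 to 8 of the paralogs, 8 to 10 of the p21-DREAM genes and 4 to 10 of the regulators. No setting brought any of the 10 genes past the study's thresholds. Besides the fits named in the report, Bax lost its call without the filter on low counts (adjusted p = 0.141) and with DESeq2 (0.0617), while Plk2 gained one with upper-quartile factors (0.0443) and DESeq2 (0.0445). Deviations from the group means correlated at -0.16, 0.23 and -0.39 between libraries of the same replicate number. These 3 values depend on each other, so they cannot settle whether the libraries were paired. With the replicate block 4 of the 10 genes were called, with Bax lost (log2 fold change -0.27, adjusted p = 0.079), and 6 of the regulators. For the other 28 named genes 397 of 416 fits kept the direction and the side of the threshold, 17 lost a call, 2 gained one and 0 changed direction, and Ephx1 could be fitted under 11 of the 15. Most of the 17 lost calls came from the neighbor offset alone. In that fit Sirt1, Ppp1r13l, Wrap53, Usp10, Ep300, Rrm2, Cdk1, Bub1, Cdc25c, E2f1 and Bak1 were no longer called. Changes in the 10 paralog ratios kept their sign without any single library. Depth limits Bbc3 (33 to 72 reads per library) and Trp53inp1 most among the 10 genes.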

Other observations

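Among the other p53 targets, 9 called genes were smaller in change than those named above, and were chosen for mention after their values were seen. Gadd45a, a stress protein of the DNA damage response (log2 fold change 0.53, adjusted p = 0.00611 by edgeR's quasi-likelihood test, as for the others), Apaf1, the scaffold of the apoptosome (0.33, adjusted p = 0.00459), Polk, a translesion polymerase (0.23, adjusted p = 0.0384), and Lpin1, a phosphatidate phosphatase (0.26, adjusted p = 0.0161), rose. Aen, an exonuclease of apoptosis (-0.65, adjusted p = 0.000114), Phlda3, an inhibitor of Akt (-0.74, adjusted p = 0.00485), Sfn, the cell cycle regulator 14-3-3 sigma (-0.57, adjusted p = 0.00388), Tigar, a regulator of glycolysis (-0.55, adjusted p = 0.00642), and Perp, a desmosomal protein (-0.38, adjusted p = 0.0257), fell. With the neighbor median subtracted, Apaf1 came to -0.14 (adjusted p = 0.187), Perp to 0.03 (adjusted p = 0.858) and Lpin1 to 0.78 (adjusted p = 1.81e-05). Apaf1 and Perp were thus no longer called and could not be told from no change. The exons of Gadd45a overlap those of E230016M11Rik on the opposite strand, a gene with at most 34 counts in a library against at least 141 for Gadd45a.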
